A study of Mus musculus with 4 samples.

Results

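Collagen chain genes encode the polypeptides that wind in threes into collagen triple helices. They were taken as every gene whose symbol consists of Col, a number, a and a number, which gave 44 of the 46517 genes in the deposited tables. By the assembly their products form, 11 are fibrillar, 6 basement membrane, 6 beaded filament and 9 FACIT (fibril-associated) genes. The other 12 comprise *Col26a1*, *Col28a1* and genes of networks, anchoring fibrils, membrane-bound collagens or multiplexins, the collagens of vascular and epithelial basement membranes.

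A collagen molecule is a trimer of chains that may come from the same gene or from different genes, so the level of each chain gene bears on which trimers can form. Type I collagen, made of the products of *Col1a1* and *Col1a2*, is the main protein of the organic bone matrix, and types III and V join it in the early fibrils of healing tissue. Type II is the collagen of cartilage, types IV and VI surround cells, and FACIT collagens sit on the surface of fibrils.

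The cells were PαS cells, PDGFRα+Sca-1+ mesenchymal cells without CD45, CD11b, Ter119, CD31 and CD34, sorted from the injury tissue within and around the femur of wild-type C57BL/6J mice. After 7 days in osteogenic medium with BMP-2 (500 ng per ml) and IL-17A (10 ng per ml) together, IL-17A alone, BMP-2 alone or no cytokine, mRNA was sequenced in 1 library per condition. IL-17A is an inflammatory cytokine and BMP-2 a bone-inducing growth factor, and the design asks how each changes these cells alone and in the presence of the other. How many mice stood behind a library is not stated, and the study's methods give female mice a few weeks old for its work on bone regeneration. As each condition had 1 library, none of the differences can be set against a spread between cultures.

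Exon reads numbered 4190612 to 4719412 per library, and spliced reads made up 53.1 to 53.9% of them. A gene is called measured where its exon reads averaged 10 or more, which held for 11352 genes. A list of mesenchymal markers, *Pdgfra* and *Ly6a* (the Sca-1 gene), on which the sort rested, with *Thy1*, *Cd44* and *Itgb1*, was present in every library, with a summed RPKM (exon reads per kilobase of exon and scaled to the reads assigned to genes) of 1685 with both cytokines, 1712 with IL-17A, 2051 with BMP-2 and 2040 without cytokine over its 5 genes, all measured. Most of it was *Ly6a*, at 1460, 1411, 1796 and 1710 RPKM in the same order. *Pdgfra* itself was lowest with BMP-2, at 7.38 RPKM, against 13.6 to 15.5 RPKM in the other libraries. In whole cultures, fewer cells of a type and less RNA per cell cannot be told apart.

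Of the 44 collagen chain genes 28 were measured and 16 fell below the limit. The measured ones were all 11 fibrillar genes, 4 of 6 basement membrane genes, 3 of 6 beaded filament genes, 3 of 9 FACIT genes and 7 of the 12 others. *Col4a4*, *Col9a1*, *Col9a2*, *Col25a1* and *Col26a1* had 0 exon reads in every library, and *Col4a3*, *Col6a4*, *Col6a6*, *Col13a1*, *Col19a1* and *Col22a1* never more than 1. A count of 0 allows up to 3 reads in a library of this depth. The 5 remaining genes had reads in 1 or 2 libraries. *Col17a1*, the membrane collagen of hemidesmosomes, had 26 reads with both cytokines and 0 in the other libraries. *Col20a1* had 22 reads without cytokine, 1 with IL-17A and 0 in the libraries with BMP-2. *Col6a5* had 15 reads without cytokine and 0 elsewhere. *Col10a1*, the collagen gene of hypertrophic cartilage, had 6 reads with IL-17A, 2 with BMP-2 and 0 in the other libraries, and *Col9a3* had 4 with IL-17A and 1 without cytokine.

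Some of these genes lie head to head. *Col4a1* and *Col4a2* start on opposite strands of chromosome 8 and share 22 bases, shown because a read there could come from either gene when strand is not recorded (mm10, chr8:11312805-11312826, plus strand, from RefSeq GRCm38.p6):
Col4a1 and Col4a2 overlap: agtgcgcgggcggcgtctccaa
*Col4a5* and *Col4a6* also face away from each other, on chromosome X, with 1308 bases between them. Of this pair *Col4a6* was without reads in 1 library and *Col4a5* was not, so the stretches before both starts are shown. Those of *Col3a1* and *Col5a1* are added as abundant genes, of which *Col3a1* was lower in the libraries with BMP-2 and *Col5a1* in those with IL-17A. A RefSeq window (250 bases before to 50 after a start, GRCm38.p6) was found for 35 of the 44 genes. Capitals mark promoter motifs found on either strand. The motif called CCAAT box was searched by its name's letters. The motif called TATA box was searched by the letters TATAAA. The motif called GC box, the site of Sp1-type factors, was searched by the letters GGGCGG. The motifs share no letters with each other in these stretches, which end at the base before the start of the gene:
Col4a6, chrX:141474077-141474326, minus strand: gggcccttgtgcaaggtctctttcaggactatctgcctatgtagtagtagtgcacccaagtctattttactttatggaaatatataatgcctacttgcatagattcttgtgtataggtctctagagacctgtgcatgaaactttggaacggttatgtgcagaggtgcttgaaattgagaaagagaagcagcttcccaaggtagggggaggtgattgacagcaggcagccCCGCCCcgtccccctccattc
Col4a5, chrX:141475169-141475384, plus strand: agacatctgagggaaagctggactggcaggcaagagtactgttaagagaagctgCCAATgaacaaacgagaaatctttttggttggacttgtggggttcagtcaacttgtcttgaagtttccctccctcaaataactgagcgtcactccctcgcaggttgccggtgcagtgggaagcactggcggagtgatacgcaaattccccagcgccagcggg
Col3a1, chr1:45311288-45311537, plus strand: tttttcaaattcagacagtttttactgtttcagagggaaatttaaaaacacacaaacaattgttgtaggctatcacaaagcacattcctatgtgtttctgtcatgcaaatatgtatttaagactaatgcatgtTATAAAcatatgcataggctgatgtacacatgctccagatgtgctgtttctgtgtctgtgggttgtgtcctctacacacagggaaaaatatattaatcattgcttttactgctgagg
Col5a1, chr2:27886175-27886424, plus strand: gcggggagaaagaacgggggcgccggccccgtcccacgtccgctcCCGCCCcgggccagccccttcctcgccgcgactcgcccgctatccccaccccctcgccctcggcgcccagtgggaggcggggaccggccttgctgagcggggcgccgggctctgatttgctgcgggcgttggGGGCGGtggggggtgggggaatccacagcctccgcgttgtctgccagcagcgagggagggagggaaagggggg
The *Col5a1* stretch holds 2 GC boxes and is 76.4% G and C, against 35.2% in *Col3a1*, whose stretch holds 1 TATA box and no GC box. Among all 32851 windows, the 250 bases before the start hold a GC box in 32.7%, a TATA box in 12.4% and a CCAAT box in 33.8%. The *Col4a6* stretch holds 1 GC box, and the 216 bases shown for *Col4a5* hold 1 CCAAT box, found in 30.5% of windows at that length. These matches describe letters and not bound sites.

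Collagen genes made up less of the mRNA with both cytokines than in any other library. They took 2.22% of exon reads with both cytokines (95% exact Clopper–Pearson interval 2.21 to 2.23), 3.05% with IL-17A (3.04 to 3.07), 2.78% with BMP-2 (2.77 to 2.80) and 2.97% without cytokine (2.96 to 2.99). As PCR copies were not marked with molecular identifiers, reads are not independent molecules, and all intervals given here cover counting error alone. *Col1a1*, *Col1a2* and *Col3a1* supplied 66.1% of the collagen reads with both cytokines, 73.0% with IL-17A, 66.3% with BMP-2 and 67.6% without cytokine. Without these 3 genes the share was 0.752% with both cytokines, 0.825% with IL-17A, 0.938% with BMP-2 and 0.963% without cytokine, so that both libraries with IL-17A lay below those without it.

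**Figure D1:**
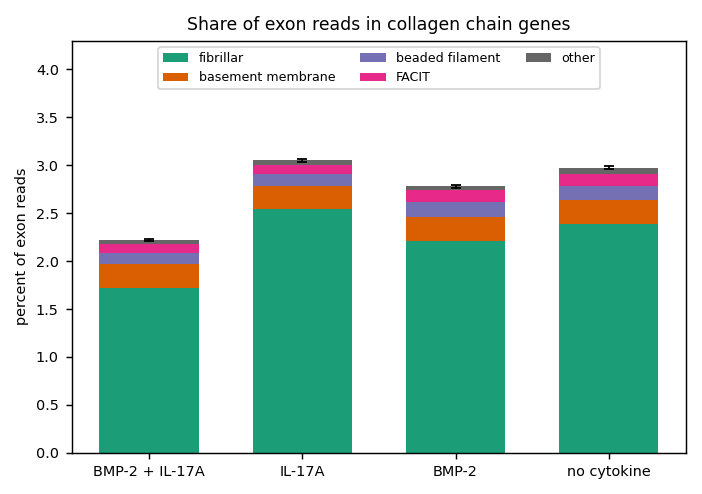
Percent of exon reads in collagen chain genes (y axis) in each of the 4 libraries (x axis), stacked by class, with 95% counting intervals on the total. The total was 2.22% with both cytokines, 3.05% with IL-17A, 2.78% with BMP-2 and 2.97% without cytokine.

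The classes differed in how far their summed reads moved. After scaling by TMM, the ratio of both cytokines over none was 0.696 (0.690 to 0.702) for fibrillar genes, 0.693 (0.669 to 0.718) for beaded filament genes, 0.770 (0.741 to 0.801) for FACIT genes and 0.636 (0.600 to 0.673) for the others. Basement membrane genes were at 0.972 (0.947 to 0.997). With IL-17A over none the fibrillar sum was 1.04 (1.04 to 1.05), and *Col1a1*, *Col1a2* and *Col3a1*, most of its reads, were together at 1.08 (1.07 to 1.09). Gene by gene 6 of the 11 fibrillar genes were lower and 3 higher beyond counting error, beside 29.4% and 29.9% of all genes, with a median ratio of 0.800. In this comparison the beaded filament sum was 0.794 (0.766 to 0.823) and the FACIT sum 0.753 (0.723 to 0.784). Most FACIT reads were of *Col12a1*, and gene by gene 1 of the 3 measured FACIT genes was lower and 2 higher beyond counting error, with a median ratio of 1.16. With BMP-2 over none the fibrillar sum was 0.921 (0.913 to 0.929), and the sum of the other collagens was the lowest, at 0.649 (0.612 to 0.687).

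*Col1a1*, encoding the α1 chain of type I collagen, was the most abundant collagen gene. *Col1a1* (ENSMUSG00000001506, chromosome 11, 94936224 to 94953042) had an RPKM of 897 with both cytokines, 1209 with IL-17A, 1130 with BMP-2 and 1118 without cytokine, from 29909, 35633, 37607 and 36584 exon reads. It was lowest where the cytokines were combined, with a ratio of 0.782 (0.770 to 0.794) over no cytokine. *Col1a2* (ENSMUSG00000029661, chromosome 6, 4504814 to 4541544), encoding the α2 chain, had 345, 576, 443 and 506 RPKM in the same order of libraries. *Col3a1* (ENSMUSG00000026043, chromosome 1, 45311538 to 45349706), the gene of the homotrimeric type III collagen, had 362, 598, 445 and 547 RPKM. In all 3 genes the highest level was that with IL-17A alone and the lowest that with both cytokines.

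Type V collagen starts and limits the growth of fibrils, and its α1 gene did not follow type I. *Col5a1* (ENSMUSG00000026837, chromosome 2, 27886425 to 28039514) had an RPKM of 120 with both cytokines, 170 with IL-17A, 217 with BMP-2 and 218 without cytokine. Both libraries with IL-17A were thus below both without it, with a ratio of both cytokines over BMP-2 of 0.539 (0.521 to 0.558) and of IL-17A over none of 0.765 (0.741 to 0.790). *Col5a2* had ratios of 0.800 to 0.974 in the 5 comparisons, and *Col5a3* ratios of 0.953 to 1.02 with every interval including 1. Exons of *Col5a1* share 99 bases with an antisense gene of at most 11 reads and 113 bases with another at 0.

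*Col2a1* (ENSMUSG00000022483, chromosome 15, 97975602 to 98004695), the cartilage fibril gene, had 125 exon reads with both cytokines, 320 with IL-17A, 696 with BMP-2 and 436 without cytokine. It was highest with BMP-2 and lowest when IL-17A was added to it, a ratio of 0.175 (0.143 to 0.212). *Col11a1*, whose chain joins type II fibrils, had 158, 94, 160 and 316 reads in the same order, so that each treated library was below that without cytokine. *Col11a2* had 30 reads with both cytokines, 17 with IL-17A, 0 with BMP-2 and 33 without cytokine. The minor fibrillar gene *Col24a1* had 27 reads with both cytokines, 0 with IL-17A, 16 with BMP-2 and 35 without cytokine. Of these 12, 0, 8 and 26 were spliced, and its introns held 25, 5, 10 and 6 reads. Its ratio of both cytokines over none was 0.7375 (0.429 to 1.25) in exon reads and 0.446 (0.205 to 0.916) in spliced reads. *Col27a1*, encoding a fibrillar chain of cartilage, had 27 reads with both cytokines, 3 with IL-17A, 2 with BMP-2 and 29 without cytokine, so that the libraries given a single cytokine were the low ones. Its spliced reads numbered 11, 0, 0 and 19.

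Of 7 chondrocyte markers other than collagens 2 were measured, *Acan*, *Matn1* and *Hapln1* were at 0 in every library, and *Sox9*, the transcription factor gene of cartilage, had 199 reads with both cytokines, 155 with IL-17A, 152 with BMP-2 and 177 without cytokine. *Comp* had 523, 568, 1251 and 1386 reads in that order. The part of cartilage cells in the level of *Col2a1* was not tested. The summed RPKM of the list, most of it *Comp*, was 52.0 with both cytokines, 61.8 with IL-17A, 110 with BMP-2 and 125 without cytokine.

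The abundant basement membrane genes differed little between libraries. *Col4a1* (ENSMUSG00000031502, chromosome 8, 11198423 to 11312826), whose chain forms the common type IV network with that of *Col4a2*, had 235 RPKM with both cytokines, 206 with IL-17A, 219 with BMP-2 and 229 without cytokine. *Col4a2* (ENSMUSG00000031503, chromosome 8, 11312805 to 11449287) had 92.6, 90.1, 95.9 and 96.9 RPKM in that order. All ratios of these 2 genes lay between 0.885 and 1.13. Only 86.9% of *Col4a1* reads were unique to it, the smallest share among the measured members. *Col4a5* (ENSMUSG00000031274, chromosome X, 141475385 to 141689234) had 16.9, 20.7, 20.2 and 21.1 RPKM, lowest with both cytokines.

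*Col4a6* (ENSMUSG00000031273, chromosome X, 141165403 to 141474076) had exon reads in each library that received a cytokine and none in the library without. It had 53 exon reads with both cytokines, 27 with IL-17A, 67 with BMP-2 and 0 without cytokine, of which 42, 19, 50 and 0 were spliced. Its introns held 21, 2, 9 and 5 reads. With a floor of 3 reads in the library at 0, its level was at least 16.9-fold higher with both cytokines, at least 9.81-fold higher with IL-17A and at least 21.9-fold higher with BMP-2 than without cytokine. Of all genes that averaged 10 to 200 reads, 11.7% were at 0 in at least 1 library, as were 4 of the 10 collagen genes of that depth.

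The 3 measured type VI genes, whose chains form beaded filaments around cells, were lower in both libraries with IL-17A than in those without it. How many of all genes were split this way by IL-17A or BMP-2 was not counted, here or for other genes so described. All 3 were lower beyond counting error in both comparisons, beside 33.3% of all genes for both cytokines over BMP-2 and 29.4% for IL-17A over none. *Col6a1* (ENSMUSG00000001119, chromosome 10, 76708792 to 76726168) had 122 RPKM with both cytokines, 144 with IL-17A, 186 with BMP-2 and 157 without cytokine. *Col6a2*, its neighbour on chromosome 10, had 43.6, 47.8, 59.9 and 66.5 RPKM, and *Col6a3*, encoding the largest chain, had 10.7, 11.4, 15.1 and 16.4 RPKM in the same order. Ratios of both cytokines over BMP-2 were 0.639 (0.609 to 0.671), 0.710 (0.668 to 0.754) and 0.694 (0.627 to 0.769) for the 3 genes. Those of IL-17A over none were 0.901 (0.857 to 0.947), 0.705 (0.664 to 0.749) and 0.684 (0.618 to 0.758). In spliced reads alone the last of these, that of *Col6a3*, was 0.856 (0.729 to 1.00).

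Among the FACIT genes, *Col12a1* (ENSMUSG00000032332, chromosome 9, 79598991 to 79718831), whose product binds type I fibrils, had 44.0 RPKM with both cytokines, 40.9 with IL-17A, 55.8 with BMP-2 and 61.4 without cytokine. It was lower in both libraries with IL-17A, at 0.654 (0.624 to 0.686) for IL-17A over none and 0.770 (0.735 to 0.805) for both cytokines over BMP-2. *Col16a1* went the other way, with 31.5, 29.6, 24.5 and 24.96 RPKM and ratios of 1.16 (1.06 to 1.28) and 1.26 (1.15 to 1.38). *Col14a1* (ENSMUSG00000022371, chromosome 15, 55307750 to 55520803), a regulator of fibril diameter, had 124 reads with both cytokines, 255 with IL-17A, 535 with BMP-2 and 199 without cytokine. It was 2.64-fold higher with BMP-2 than without cytokine (2.24 to 3.12), and lowest with both cytokines, at 0.226 of the level with BMP-2 (0.184 to 0.275).

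Of the remaining collagens *Col8a1* (ENSMUSG00000068196, chromosome 16, 57624258 to 57754737), the gene of a short-chain network collagen of vessels and cornea, was the most abundant. It had 55.0 RPKM with both cytokines, 74.1 with IL-17A, 56.2 with BMP-2 and 83.2 without cytokine, and was thus lower in both libraries with BMP-2. Only 8.97% of its reads were spliced, and in these the ratio of IL-17A over none was 1.03 (0.828 to 1.28), against 0.875 (0.820 to 0.933) in all exon reads. *Col8a2*, its partner, had 0 reads with both cytokines, 39 with IL-17A, 33 with BMP-2 and 107 without cytokine. With the floor of 3 reads it was at least 37.3-fold lower with both cytokines than without cytokine. Just 5 of its reads were spliced, all of them with IL-17A. *Col18a1*, the gene of a multiplexin that releases endostatin, had 249 reads with both cytokines, 450 with IL-17A, 188 with BMP-2 and 368 without cytokine. It too was lower in both libraries with BMP-2, at 0.485 (0.414 to 0.568) of the level with IL-17A where both were given, and at 0.502 (0.418 to 0.600) of the level without cytokine where BMP-2 was given alone.

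*Col7a1*, the anchoring fibril gene, was lowest with IL-17A alone, with 183 reads with both cytokines, 62 with IL-17A, 143 with BMP-2 and 178 without cytokine. *Col28a1*, a gene of peripheral nerve collagen, was highest without cytokine, with 70, 41, 52 and 149 reads in the same order. Its introns held 11, 4, 66 and 4 reads. The Schwann cell marker *S100b* had 4, 6, 32 and 26 reads, and *Sox10* was at 0 in every library. *Col15a1*, another multiplexin gene, had 17 reads with both cytokines, 7 with IL-17A, 44 with BMP-2 and 26 without cytokine, of which 1, 5, 40 and 19 were spliced. *Col23a1*, encoding a membrane collagen, had 1, 19, 45 and 23 reads, and with BMP-2 none of the 45 was spliced while 49 reads lay in its introns.

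**Figure D2:**
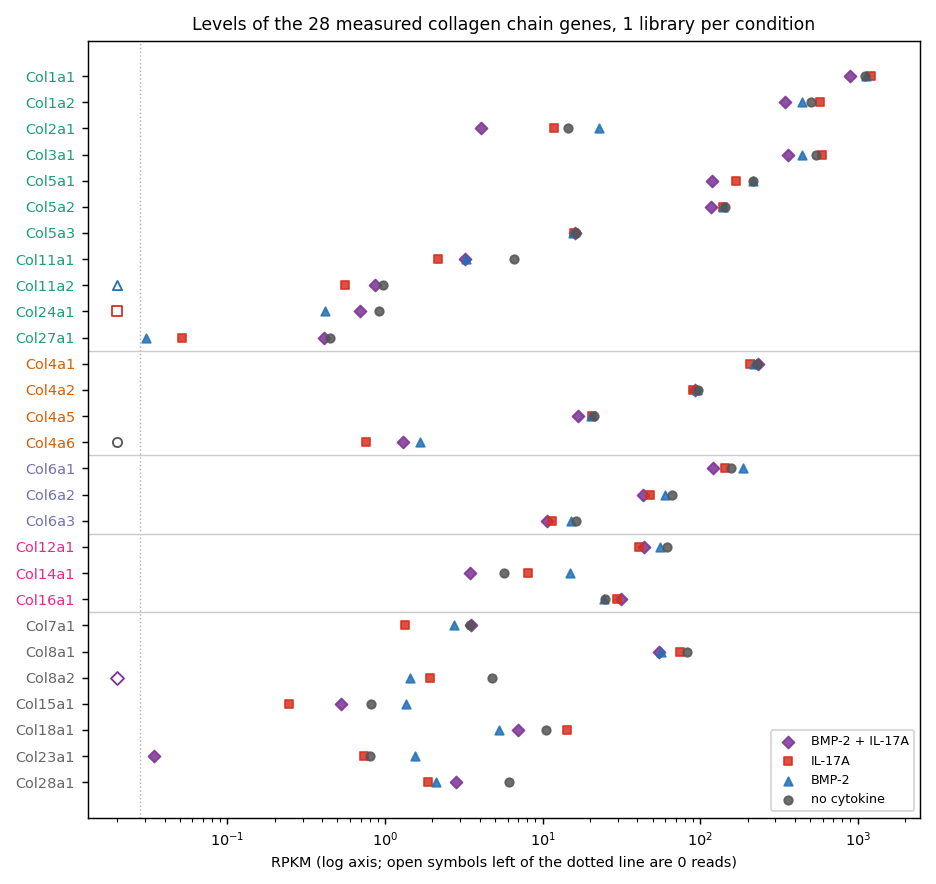
RPKM (x axis, log scale) of the 28 measured collagen chain genes (y axis, coloured and separated by class) in the 4 libraries, with open symbols at the left for 0 reads. The symbols of abundant genes such as *Col4a1* (206 to 235 RPKM) lie close together, while *Col2a1*, *Col14a1* and the genes near or below 1 RPKM are spread out.

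With both cytokines most measured collagen genes were lower than without cytokine. The interval of the ratio lay below 1 in 19 of 28, against 33.4% of all measured genes with reads in either library, and above 1 in 2 of 28, against 32.2%, namely *Col4a6* and *Col16a1*. The median ratio was 0.682, against 0.995 over all measured genes. By the stricter rule used for calls, a ratio of at least 2 or at most 0.5 with an interval excluding 1, 5 were lower (14.2% of all genes) and 1 was higher (12.2%). Those lower were *Col2a1*, *Col11a1*, *Col8a2*, *Col23a1* and *Col28a1*, and the gene that was higher was *Col4a6*. No abundant collagen gene was among them. Beyond counting error, 10 of the 11 collagen genes that averaged 1000 reads or more were lower and 0 higher, beside 357 and 321 of all 839 genes of that depth. Among the 11 collagen genes that averaged 1000 reads or more, 5 were lower by at least 1.5-fold, *Col1a2*, *Col3a1*, *Col5a1*, *Col6a2* and *Col8a1*, compared with 11.4% of the 839 genes of that depth. This limit was chosen after the data had been seen. The ratios of these 5 genes were 0.665, 0.645, 0.536, 0.639 and 0.645.

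With IL-17A over no cytokine, 17 of 28 were lower beyond counting error (29.4% of all genes) and 7 higher (29.9%), with a median ratio of 0.880 against 1.00 over all genes. Calls at 2-fold numbered 7 lower (9.94%) and 1 higher (10.9%). All 7 that were lower had few reads, *Col11a1*, *Col24a1*, *Col27a1*, *Col7a1*, *Col8a2*, *Col15a1* and *Col28a1*, and *Col4a6* was again the one that was higher. Of the 11 abundant collagen genes only *Col12a1* was lower by at least 1.5-fold (5.96% of all genes of that depth). Those higher beyond counting error included *Col1a1* at 1.06 (1.05 to 1.08), *Col1a2* at 1.12 (1.10 to 1.14) and *Col3a1* at 1.07 (1.05 to 1.09).

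For BMP-2 over no cytokine, 14 of 28 collagen genes were lower beyond counting error (30.9% of all genes) and 6 higher (30%), and the median ratio was 0.936 against 0.996. At 2-fold 6 were lower (11.7%), *Col11a1*, *Col11a2*, *Col24a1*, *Col27a1*, *Col8a2* and *Col28a1*, and 2 were higher (10.7%), *Col14a1* and *Col4a6*. None of the 11 abundant genes was lower by 1.5-fold (1.91%), the lowest being *Col8a1* at 0.674 (0.630 to 0.721). *Col3a1* had a ratio of 0.812 (0.798 to 0.827), *Col1a2* of 0.873 (0.859 to 0.888) and *Col6a1* of 1.18 (1.13 to 1.24).

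**Figure D3:**
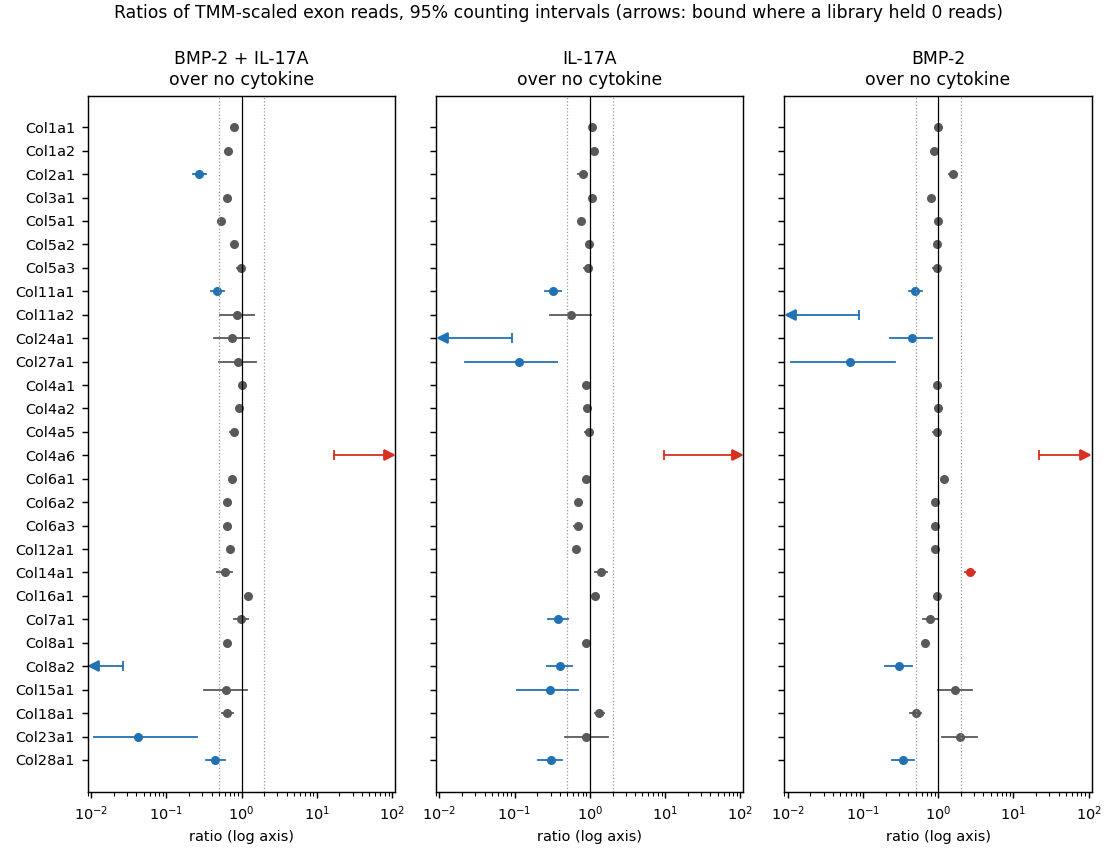
Ratios of TMM-scaled exon reads (x axes, log scale) of the 28 measured collagen genes for both cytokines, IL-17A and BMP-2, each over no cytokine, with 95% counting intervals cut at the left edge where wider, and coloured where called 2-fold apart (red higher, blue lower). Arrows mark bounds for a library at 0 reads, as for *Col4a6*, at least 9.81-fold higher in each panel.

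The libraries with both cytokines were also set against each cytokine alone. For both cytokines over BMP-2, 16 of 28 were lower beyond counting error (33.3% of all genes) and 5 higher (33%), with a median ratio of 0.805 against 0.999. At 2-fold 5 were lower (14.1%), *Col2a1*, *Col14a1*, *Col8a2*, *Col15a1* and *Col23a1*, and 2 higher (12.9%), *Col11a2* and *Col27a1*. *Col5a1* and *Col6a1*, at 0.539 and 0.639, were the abundant genes lower by at least 1.5-fold (10.7%).

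For both cytokines over IL-17A, 14 of 28 were lower beyond counting error (32.4%) and 8 higher (30.4%), with a median of 0.919 against 0.998. At 2-fold 5 were lower (13.5%), *Col2a1*, *Col14a1*, *Col8a2*, *Col18a1* and *Col23a1*, and 3 higher (10.1%), *Col7a1*, *Col24a1* and *Col27a1*. The abundant genes lower by at least 1.5-fold (7.39%) were *Col1a2* at 0.596 (0.585 to 0.606) and *Col3a1* at 0.602 (0.590 to 0.613). The 5 comparisons share libraries and are not independent of each other.

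Calls went with depth. Each of the 10 collagen genes with 10 to 200 reads on average was called 2-fold apart in at least 1 comparison, as were 69.1% of all genes of that depth. For means of 200 to 1000 reads this held for 3 of 7, against 19.3%, and for means of at least 1000 reads for 0 of 11, against 8.22%. For IL-17A over none, 8 of these 11 were lower beyond counting error and 3 higher, beside 350 and 281 of all 839 genes. For BMP-2 over none these numbers were 6 and 1, beside 304 and 305. For both over BMP-2 they were 9 and 1 (370 and 307), and for both over IL-17A 8 and 2 (314 and 324).

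For *Col1a1*, *Col1a2*, *Col3a1* and *Col14a1* the IL-17A ratio lay below 1 in the presence of BMP-2 and above 1 in its absence, and for *Col4a1* the reverse held. For the 21 genes with at least 10 reads in every library, the log2 ratio of both cytokines over BMP-2 minus that of IL-17A over none lay below 0 beyond counting error in 9 (30.1% of all genes with such reads) and above 0 in 5 (30%). The type I and III genes were below. *Col1a2* had an IL-17A ratio of 0.762 (0.748 to 0.776) with BMP-2 and of 1.12 without it, a difference of -0.55 (-0.59 to -0.52) on the log2 scale. *Col1a1* had an IL-17A ratio of 0.775 with BMP-2 and 1.06 without it (-0.45), and *Col3a1* one of 0.795 with BMP-2 and 1.07 without it (-0.43). *Col14a1* and *Col2a1* had the lowest differences, at -2.63 and -2.19. Above 0 lay *Col28a1* (2.13), *Col7a1* (1.71), *Col11a1* (1.57), *Col4a1* (0.24) and *Col12a1* (0.23). *Col6a2* and *Col6a3* held nearly the same IL-17A ratio in both states, with differences of 0.01 (-0.11 to 0.13) and 0.02 (-0.18 to 0.23).

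**Figure D4:**
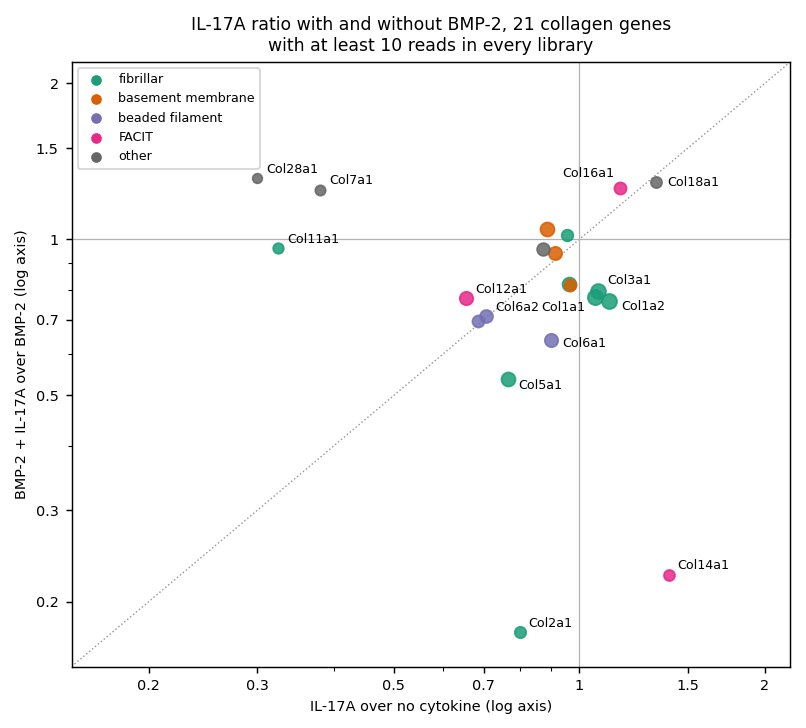
IL-17A ratio with BMP-2 (both cytokines over BMP-2, y axis) against the ratio without BMP-2 (IL-17A over no cytokine, x axis), log scales, for 21 collagen genes coloured by class and sized by mean reads, with equal ratios on the dotted line. *Col6a2* lies by the line at 0.710 and 0.705, while *Col14a1* lies far below it, at 0.226 and 1.40.

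Genes of chains that assemble together did not keep a fixed ratio across libraries. Per exon length, *Col1a1* reads were 2.60 times *Col1a2* reads with both cytokines (2.55 to 2.64) and 2.55 times with BMP-2 (2.51 to 2.59), against 2.10 times with IL-17A (2.07 to 2.13) and 2.21 times without cytokine (2.18 to 2.24). The libraries with BMP-2 and those without thus did not overlap. For *Col5a1* over *Col5a2* the split ran along IL-17A instead, with 1.02 with both cytokines (0.981 to 1.06) and 1.21 with IL-17A (1.17 to 1.25), against 1.55 with BMP-2 and 1.52 without cytokine (1.47 to 1.57). Type I and type V most often form trimers with 2 α1 chains and 1 α2 chain. The size of these ratios and of those below depends on the deposited exon lengths, such as 6563 bases for *Col1a1* and 12137 for *Col1a2*. It is therefore no measure of chain numbers, and only the change between libraries is read here.

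*Col4a1* over *Col4a2* was 2.53 with both cytokines (2.43 to 2.64) and 2.28 to 2.36 in the other libraries. In the reads unique to each gene these values were 2.28 and 1.96 to 2.08. *Col6a1* over *Col6a2* was lowest without cytokine, at 2.36 (2.25 to 2.48), against 2.79 to 3.10 in the treated libraries. *Col6a3* over *Col6a1* was 0.0884 with both cytokines, 0.0794 with IL-17A, 0.0814 with BMP-2 and 0.105 without cytokine. In spliced reads it was 0.0536, 0.0636, 0.0511 and 0.0685 in that order, more than 1.5 times lower in 3 of the 4 libraries and no longer lowest with IL-17A. Where a partner was at 0 reads only a bound can be given. *Col4a5* over *Col4a6* was 12.9 with both cytokines, 27.5 with IL-17A, 12.2 with BMP-2 and at least 279 without cytokine. *Col8a1* over *Col8a2* was at least 419 with both cytokines, 38.3 with IL-17A, 38.7 with BMP-2 and 17.4 without cytokine. In spliced reads it was at least 31.6, 29.9, at least 42.5 and at least 52.1 in that order, and *Col8a2* had spliced reads only with IL-17A. For *Col11a1* over *Col11a2* the values in exon reads were 3.73, 3.91, at least 37.7 and 6.77.

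**Figure D5:**
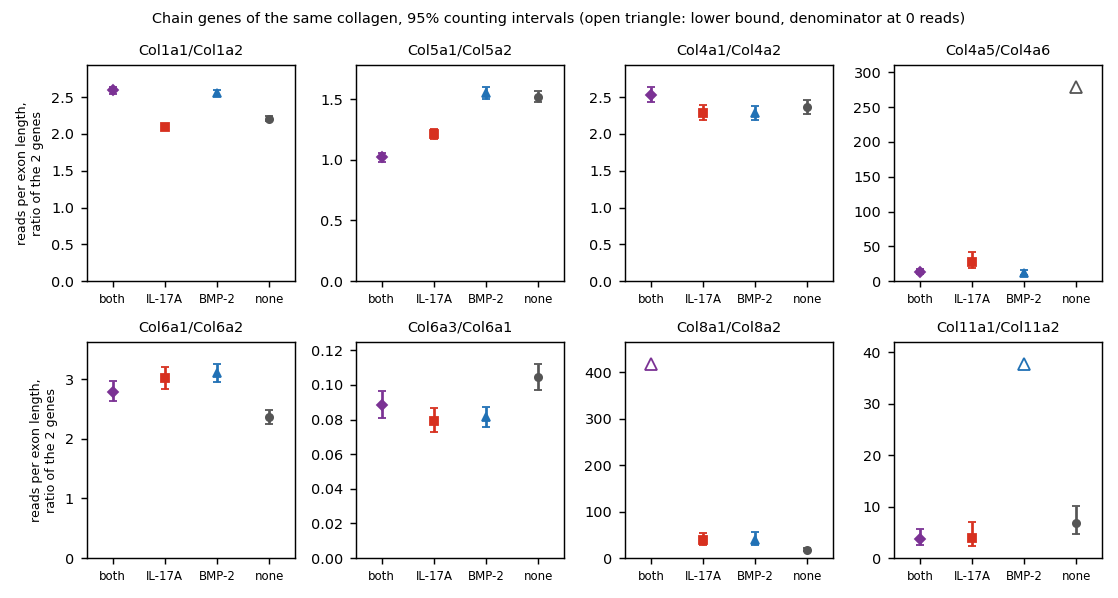
Ratio of exon reads per exon length (y axes, linear from 0) between genes whose chains assemble together, in the 4 libraries (x axes), with 95% counting intervals and open triangles for lower bounds. *Col1a1* over *Col1a2* is 2.55 or more in the libraries with BMP-2 and 2.21 or less in the others.

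In a test across all 4 libraries, with IL-17A and BMP-2 as additive terms, no collagen gene passed. edgeR's quasi-likelihood test called 0 of 28 for IL-17A (0.00881% of 11352 genes) and 0 of 28 for BMP-2 (0% of 11352 genes). This fit leaves 1 degree of freedom, which is the departure from additivity and not a spread between cultures. At an unadjusted p under 0.05 stood 4 collagen genes for IL-17A, *Col5a1* with a log2 fold change of -0.64 ± 0.17 (s.e.), *Col12a1* at -0.50 ± 0.15, *Col6a2* at -0.50 ± 0.16 and *Col6a3* at -0.54 ± 0.19, with a lowest adjusted p = 0.877 from edgeR. For BMP-2 edgeR gave such a p to 4, *Col3a1* at -0.52 ± 0.14, *Col18a1* at -1.02 ± 0.28, *Col8a1* at -0.50 ± 0.17 and *Col1a2* at -0.47 ± 0.16, with a lowest adjusted p = 0.987 from edgeR. Over all genes 623 had such a p for IL-17A and 411 for BMP-2. DESeq2 called 0 collagen genes, with lowest adjusted p of 0.0988 for IL-17A and 0.468 for BMP-2.

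Genes whose products fold, process, bind or sense collagen were taken from 5 lists. Of 20 measured genes for folding and modification in the endoplasmic reticulum, 11 were lower and 3 higher beyond counting error with both cytokines over none. Beside these stood 33.4% and 32.2% of all genes, and the median ratio was 0.870. At 2-fold 0 were higher and 1 lower, beside 12.2% and 14.2% of all genes. *Serpinh1*, the collagen chaperone HSP47, had 13539 reads with both cytokines, 15342 with IL-17A, 13542 with BMP-2 and 14872 without cytokine. *P4hb*, a subunit of prolyl 4-hydroxylase, had a ratio of 0.744 (0.718 to 0.770) for both cytokines over none. The transcription factor gene *Creb3l1*, which acts on secretion of bone collagen, was the highest of the list, at 1.82 (1.64 to 2.04). *Tmem38b*, encoding a cation channel of the endoplasmic reticulum, was the only one lower by 2-fold, at 0.459 (0.355 to 0.589).

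Of 11 measured genes for propeptide removal and cross-linking, 4 were lower and 5 higher with both cytokines, by the same measure (33.4% and 32.2% of all genes), with a median of 0.974. *Lox*, the lysyl oxidase that starts cross-linking, had 18161 reads with both cytokines, 13630 with IL-17A, 14691 with BMP-2 and 24688 without cytokine, and *Pcolce*, an enhancer of C-propeptide removal, had a ratio of 0.631 (0.604 to 0.659). *Adamts14*, an N-propeptidase gene, was 3.16-fold higher (2.12 to 4.81) and *Loxl4* 2.45-fold higher (1.81 to 3.34), both from under 200 reads per library.

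*Postn*, encoding the matrix protein periostin, had 922 reads with both cytokines, 2259 with IL-17A, 3026 with BMP-2 and 5004 without cytokine, a ratio of 0.176 (0.164 to 0.189) for both cytokines over none. *Dcn*, the decorin gene, was at 0.307 (0.271 to 0.347), *Comp*, encoding a cartilage matrix protein, at 0.361 (0.326 to 0.399) and *Thbs1*, the thrombospondin-1 gene, at 0.379 (0.372 to 0.386). *Sparc*, the osteonectin gene and most abundant of the list, was at 1.07 (1.06 to 1.08). Of the 10 measured genes of this list 6 were lower and 3 higher beyond counting error (33.4% and 32.2% of all genes). Among 7 measured receptor and uptake genes 5 were lower and 2 higher, beside the same shares. The collagen-binding integrin genes *Itga1* and *Itga11* were lowest, at 0.105 (0.0560 to 0.183) and 0.150 (0.105 to 0.210), while *Ddr2*, encoding a collagen-binding receptor tyrosine kinase, was at 1.28 (1.18 to 1.39). Of 11 measured genes for partners in the basement membrane 7 were lower and 3 higher, beside 33.4% and 32.2% of all genes. *Nid1*, encoding nidogen-1, was at 1.18 (1.13 to 1.23), *Lamc1*, the laminin γ1 gene, at 0.712 (0.662 to 0.765), and *Agrn*, the agrin gene, had 0 reads with both cytokines against 110 without cytokine.

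Markers of other cell types also differed between the libraries. The adipocyte list, with 4 of 4 genes measured, had a summed RPKM of 724 with both cytokines, 393 with IL-17A, 347 with BMP-2 and 332 without cytokine. Most of it was *Fabp4*, at 668, 347, 305 and 298 RPKM. With both cytokines over none 3 genes of the list were higher and 1 lower beyond counting error, beside 32.2% and 33.4% of all genes. The one lower was *Pparg*, the adipocyte transcription factor gene, with 185 reads with both cytokines, 132 with IL-17A, 220 with BMP-2 and 227 without cytokine. The haematopoietic and macrophage list, with 4 of 5 measured, summed to 72.6 with both cytokines, 95.6 with IL-17A, 280 with BMP-2 and 99.0 without cytokine, most of it *Lyz2*. *Csf1r* was lowest with BMP-2, with 183, 108, 61 and 130 reads in the same order, and *Adgre1* had 0, 17, 0 and 24 reads. *Cd68* had 10, 0, 50 and 33 reads. *Ptprc*, the CD45 gene and the one not measured, had 0, 1, 4 and 4. For BMP-2 over none 1 gene of the list was higher and 2 lower beyond counting error, beside 30% and 30.9% of all genes. The osteoblast list, with 3 of 7 measured and *Ibsp* and *Phex* at 0 throughout, was at 88.0 with both cytokines, 54.5 with IL-17A, 34.6 with BMP-2 and 17.2 without cytokine. *Alpl*, the alkaline phosphatase gene, made up most of it, with 1435, 864, 364 and 209 reads. *Runx2*, an osteoblast transcription factor gene, had 80, 59, 103 and 103 reads, and *Sp7*, another, had 240, 54, 209 and 55. Myofibroblast and mural genes, with 5 of 6 measured, summed to 3320, 3690, 3542 and 3549 RPKM in the same order. Of 5 endothelial genes *Pecam1*, *Cdh5* and *Tie1* were at 0 in every library. The measured ones were *Kdr*, with 0 reads with both cytokines, 0 with IL-17A, 70 with BMP-2 and 117 without cytokine, and *Tek*, with 23, 51, 63 and 0 reads. The part of these cells in the collagen differences was not tested.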

How the data were processed

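Total RNA of the 4 cultures was amplified as full-length cDNA (SMART-Seq v4), sequenced on an Ion Proton and assigned to mouse genes by the authors in CLC Genomics Workbench. The sources used here give neither its version nor its settings. The genome build in the submitters' processing notes is mm10, and strand was not recorded. The deposited counts are raw reads per gene in total, unique, exon, intron and exon-exon (spliced) classes. The deposited RPKM was computed by the authors from exon reads, exon length and summed gene reads, and recomputing it gave back the exon reads with an error of 0.

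Scaling of the exon read counts used TMM in edgeR 4.0.16 under R 4.3.3. Ratios carried exact (Clopper–Pearson) 95% intervals (Python 3.11.15, scipy 1.17.1, numpy 2.4.6, pandas 2.3.3, matplotlib 3.10.9). Genes averaging at least 10 reads were compared, without those at 0 in both libraries, and a call needed a 2-fold ratio and an interval excluding 1. A library at 0 was given a floor of 3 reads. Genes whose chains assemble together were compared within a library by exon reads per exon length. IL-17A and BMP-2 were tested as additive terms over the 4 libraries with edgeR's quasi-likelihood test, Benjamini-Hochberg adjusted at 0.05, and with DESeq2 1.42.0. The edgeR test was tried on simulated counts.

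Alternatives were other scalings, unique or spliced reads, folds of 1.5 and 3, read minimums of 1, 50 and 200, and no term for the other cytokine. A minimum of 1000 reads with a fold of 1.5 was chosen after seeing the data. Values in every library were printed for up to 4 genes per class with the highest mean reads and for each measured gene called in at least 1 comparison. From the lists of related genes, the rule names at most 4 by mean reads and at most 3 by ratio, and the others named were chosen after their values were seen. The members and lists were chosen with earlier results of these data known. Promoter sequences are RefSeq's (GRCm38.p6).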

Additional observations from a re-analysis of the deposited data

Results flagged for a closer look

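For several collagen genes the ratio of a cytokine lay on opposite sides of 1 in the presence and in the absence of the other cytokine, with both counting intervals excluding 1. Of 21 genes with at least 10 reads in every library, 5 did so for IL-17A and 8 for BMP-2. The share of all genes that did so was not counted. Among all genes with such reads, the 2 log2 ratios differed beyond counting error upward in 30% and downward in 30.1%. Each value below is the log2 ratio with the other cytokine present minus that with it absent, and none of these differences was tested, as each rests on 1 library per condition.

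For IL-17A this held for *Col1a1* (-0.45), *Col1a2* (-0.55), *Col3a1* (-0.43), *Col4a1* (0.24) and *Col14a1* (-2.63). The first 3 and *Col14a1* had a ratio below 1 with BMP-2 and above 1 without it, and *Col4a1* the reverse.

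For BMP-2 it held for *Col2a1* (-2.19), *Col6a1* (-0.4955) and *Col14a1* (-2.63), whose ratio lay below 1 with IL-17A and above 1 without it. The reverse held for *Col11a1* (1.57), *Col4a1* (0.24), *Col12a1* (0.23), *Col7a1* (1.715) and *Col28a1* (2.13). In spliced reads the BMP-2 ratio in the presence of IL-17A was 0.974 (0.909 to 1.04) for *Col12a1* and 1.17 (0.707 to 1.95) for *Col28a1*, with intervals that include 1. The BMP-2 ratio of *Col7a1* in the absence of IL-17A was 0.838 (0.658 to 1.07) in spliced reads, which also includes 1.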

How the results depend on the processing

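With 1 library per condition no library could be left out, since the additive fit on 3 libraries leaves 0 degrees of freedom. No paired analysis was possible because each group holds 1 sample. Other scalings (library totals, size factors from DESeq2, or TMM with the 100 top genes left out) kept the counts of called collagen genes within 1.5 times in all 5 comparisons, as did unique reads and a minimum of 1 read. A minimum of 50 reads gave 3 calls for both cytokines over none, 2 for both over BMP-2, 4 for both over IL-17A, 3 for IL-17A over none and 3 for BMP-2 over none. A minimum of 200 gave 1, 2, 3, 0 and 1 calls in that order. Spliced reads gave 4 for both over BMP-2 and 5 for both over IL-17A. A fold of 3 gave 4 for both over IL-17A and 4 for BMP-2 over none, and a fold of 1.5 gave 14 for both over none. A minimum of 1000 reads with a fold of 1.5, chosen after seeing the data, gave 2 for both over BMP-2, 2 for both over IL-17A, 1 for IL-17A over none and 0 for BMP-2 over none. Fewer genes remain under a higher minimum.

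For IL-17A over all genes, edgeR called 1 gene in exon reads and 0 in unique reads (where 578 had an unadjusted p under 0.05), while 49 passed in DESeq2. For BMP-2 edgeR called 0 and DESeq2 9. No collagen gene was among these calls. The collagen share was 2.47% with both cytokines, 3.39% with IL-17A, 3.09% with BMP-2 and 3.30% without cytokine in unique reads, and 3.23%, 4.515%, 4.075% and 4.37% in that order in spliced reads. Without *Col1a1*, *Col1a2* and *Col3a1* it was 0.752%, 0.825%, 0.938% and 0.963%. Among the recomputed ratios of single collagen genes 609 stayed within their counting interval and 31 moved, 20 of them in spliced reads. For *Col15a1*, both cytokines over none was 0.625 (0.318 to 1.20) in exon reads and 0.0509 (0.00123 to 0.320) in spliced reads. Among ratios called 2-fold apart in exon reads, only that of *Col8a2* for IL-17A over none changed direction. It was 0.397 in exon reads (39 against 107 reads). In spliced reads it lay above 1 (5 against 0 reads), with an interval from 0.986 that includes 1. Among ratios that were not called, spliced reads turned both cytokines over IL-17A for *Col12a1* (1.07 in exon reads, 0.974 in spliced reads) and *Col15a1* (2.13 and 0.180), IL-17A over none for *Col8a1* (0.875 and 1.03) and BMP-2 over none for *Col23a1* (1.92, and 0 spliced reads with BMP-2), and others whose intervals include 1 on both counts. Of the chain pair ratios 18 of 27 moved in spliced reads and 4 of 29 in unique reads. The cause of these shifts was not tested.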
